A study of Mus musculus with 24 samples.

Results

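NK cells sorted from the spleen of mice bearing RMA-KR lymphomas were compared between day 7 after tumor injection, the intermediate stage, and day 2, the early stage. The libraries were chosen by their labels alone, as the 5 labelled RMA-KR at day 7 and the 3 labelled RMA-KR at day 2, which are 8 of the 24 RNA-seq libraries of the series. All mice were wild-type C57BL/6J, and the study's methods give females of 7 to 9 weeks unless stated otherwise. RMA is a T cell lymphoma line, and RMA-KR was made from it by knocking out B2m, which removes MHC-I from the surface, and by adding the NKG2D ligand Rae1-β with a ZsGreen lentiviral vector, after which the cells were subcloned. Tumor cells were given intravenously. NK cells were sorted as NKp46 or NK1.1 positive cells negative for markers that included CD3, CD5 and both T cell receptors. Control libraries from mice without tumor (n = 4), and libraries from mice bearing RMA at day 2 (n = 3) and day 4 (n = 3), serve below as background and for one comparison between tumors. The labels do not state that each library is 1 mouse, so p-values measure the spread between libraries. In bulk RNA of sorted cells, fewer cells that express a gene and less RNA of it per cell cannot be told apart.

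NK cells kill cells that lack MHC-I or that display stress ligands such as Rae1-β, which the activating receptor NKG2D binds. Early contact and cytokines raise immediate early genes such as Fos and Jun, transient transcription factors that appear within minutes of stimulation and that cell isolation can also raise. Sustained activation is known to be followed by growth, in which ribosome production, metabolism and DNA replication rise before cells divide.

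Read counts on genes ran from 10451413 to 12900199 at day 2 and from 8131589 to 14824109 at day 7. The day 7 libraries were not alike. On the first principal component of the 8 libraries, with 24.3% of the variance, day 7 libraries 1 and 2 lay at -51.4 and -75.6, within and near the range of the day 2 libraries at -24.0, -60.4 and -66.5, whereas day 7 libraries 3, 4 and 5 lay at 62.9, 106 and 109. Libraries 1 and 2 held 14824109 and 11466996 counts on 16651 and 15922 detected genes, and libraries 3 to 5 held 8131589 to 9626213 counts on 24621 to 26285 genes, so depth and the number of detected genes moved with this difference. Day 2 library 1 also stood apart, at 161 on the second component (18.4% of the variance) against 7.27 and -14.9 for the other 2 day 2 libraries. Markers of other cells differed in it in both directions, with the immunoglobulin gene Igkc at 59.1 normalized CPM against 2.22 and 1.69 and Flt3 at 13.9 against 0.31 and 0, but Ighm at 232 against 438 and 360 and Cd68 at 5.47 against 27.4 and 21.5. Their part in the results was not tested. The labels name no batch. Results with all 5 libraries are therefore followed, for the main gene groups, by those with libraries 1 and 2, or 3 to 5, left out. This split was known beforehand from Fos and Jun, so the fits with libraries left out describe it and give no separate test.

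Sequence upstream of 4 genes is shown for 2 immediate early genes whose levels separated the day 7 libraries (Fos, Dusp1) and for 2 cell cycle genes called between tumors (Kif11, Cdkn3). RefSeq windows on GRCm38.p6, the build that mm10 names, were searched on both strands for TGACGTCA (cyclic AMP response element), TGANTCA (AP-1), the CArG box, TTTGGCGC and TTTCCCGC (E2F), TTTGAA (cell cycle homology region), GAAANNGAA (interferon-stimulated response element) and the NF-kappa B site, none of which contains another. Capitals mark every match in the stretch shown. The Fos stretch is chr12:85473640-85473889 on the plus strand, the Dusp1 stretch chr17:26508523-26508622 on the minus strand, the Kif11 stretch chr19:37376232-37376381 and the Cdkn3 stretch chr14:46760391-46760540, both on the plus strand, each written 5′ to 3′ and ending before the annotated start.
Fos: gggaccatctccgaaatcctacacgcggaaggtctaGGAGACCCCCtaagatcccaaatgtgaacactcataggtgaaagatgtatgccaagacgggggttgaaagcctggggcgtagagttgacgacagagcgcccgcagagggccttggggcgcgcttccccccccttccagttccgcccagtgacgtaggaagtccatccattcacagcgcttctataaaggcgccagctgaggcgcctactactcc
Dusp1: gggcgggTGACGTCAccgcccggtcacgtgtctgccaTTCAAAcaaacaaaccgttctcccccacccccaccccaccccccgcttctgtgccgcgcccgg
Kif11: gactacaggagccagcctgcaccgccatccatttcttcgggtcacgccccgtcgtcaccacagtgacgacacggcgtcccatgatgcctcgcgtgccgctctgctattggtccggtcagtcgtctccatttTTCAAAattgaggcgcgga
Cdkn3: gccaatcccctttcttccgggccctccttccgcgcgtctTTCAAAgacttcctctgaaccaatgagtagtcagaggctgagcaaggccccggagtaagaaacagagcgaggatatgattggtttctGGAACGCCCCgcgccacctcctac

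The Fos stretch holds 1 NF-kappa B match, at -214 to -205 from the start, and the Dusp1 stretch holds TGACGTCA at -143 to -136. The reverse complement of TTTGAA stands at -113 to -108 in Dusp1, at -19 to -14 in Kif11 and at -111 to -106 in Cdkn3, and Cdkn3 also holds an NF-kappa B match at -24 to -15. In windows of 250 bases before the start, TGACGTCA occurred in 1.55% of all 32851 promoters and in 4 of 38 promoters (10.5%) of the immediate early list, as well as in 6 of 66 (9.09%) of the ribosomal protein list. TTTGAA occurred in 16.0% of all promoters and in 22 of 54 promoters (40.7%) of the G2 and mitosis list. The CArG box occurred in 1.47% of all promoters and in 6 of 38 of the immediate early list, and the NF-kappa B site in 7.25% and in 7 of 38. These matches describe letters only.

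With all 8 libraries, the genes called higher at day 7 included ribosomal protein and nucleolar genes, the serine synthesis gene Psat1 and the costimulatory receptor gene Tnfrsf9, and those called lower included the noncoding RNA Malat1 and the Ras regulator Nf1. Of 17097 genes tested with edgeR's quasi-likelihood test, 61 were called higher at day 7 (0.357%) and 18 lower (0.105%), where called means an adjusted p under 0.05 and a change over 2-fold. In 72 of these 79 genes no day 7 library overlapped a day 2 library. Over all genes tested, 778 (4.55%) were higher and 730 (4.27%) lower without overlap, and the median log2 fold change was 0.02. Without libraries 1 and 2, 258 genes were called higher (1.54%) and 183 lower (1.09%), including all 79. Without libraries 3 to 5, edgeR called 0 genes, with 1529 at an unadjusted p under 0.05, and all 79 kept their direction. A fit to these 8 libraries alone also called 0, with 1728 at an unadjusted p under 0.05, whereas DESeq2 with all groups called 458. Leaving out 1 library at a time gave 23, 8 and 57 calls without day 2 libraries 1 to 3 (16, 5 and 32 of them among the 79). Without day 7 libraries 1 to 5 it gave 124, 221, 11, 24 and 33. Single genes differed in these 8 fits. Gm42715 was called in all 8, Rpl8 and Rps20 in 7, Psat1 in 6 and Serpine2 in 4. Tnfrsf9, Calr, Il12rb1, Serpina3g, Npm1, Ddx21, Hyou1 and Unc13d were each called in 2.

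**Figure D1:**
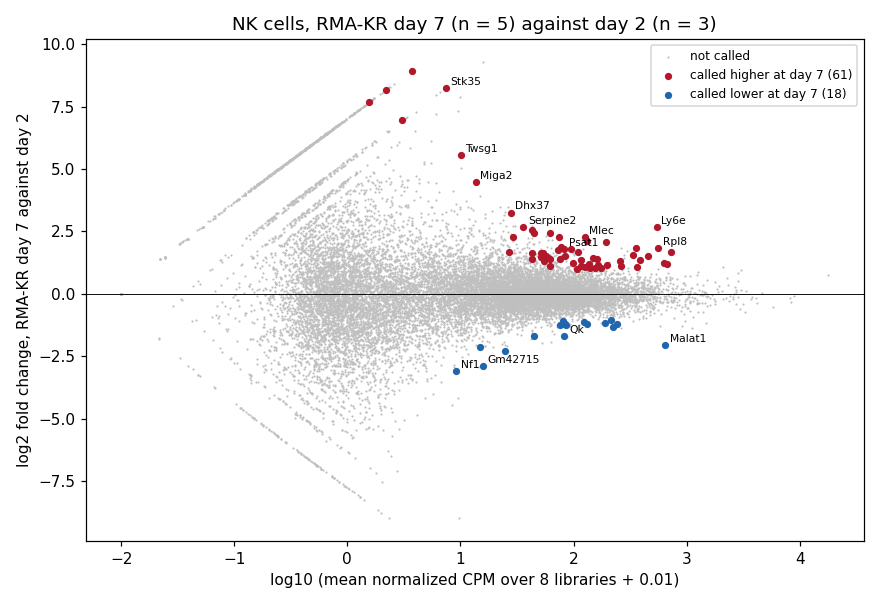
Each point is 1 of 17097 genes, with the log10 mean normalized CPM over the 8 RMA-KR day 2 and day 7 libraries on the x axis and the fitted log2 fold change of day 7 against day 2 on the y axis. The 61 genes called higher are red and the 18 called lower are blue, and fitted fold changes of genes nearly undetected at day 2, at the top of the plot, are not bounds.

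Cytosolic ribosomal protein genes were the list with the most calls. They encode the subunits that assemble with ribosomal RNA, and 66 of 77 had a higher estimate at day 7, with a median log2 fold change of 0.73. Of these 77, 5 were called higher (6.49%, against 0.357% of all genes) and 0 lower, 42 (54.5%) were higher at an unadjusted p under 0.05, against 8.07% of all genes, and 20 (26.0%, against 4.55%) were higher without overlap. Rpl8, of the large subunit (chromosome 15, 76904078 to 76906314), was at 215, 200 and 239 normalized CPM in day 2 libraries 1 to 3 and at 396, 358, 981, 1038 and 1076 in day 7 libraries 1 to 5. Every day 7 library was above every day 2 library, and libraries 3 to 5 stood apart above libraries 1 and 2. Rpl8 rose by 1.82 ± 0.29 on the log2 scale (SE, adjusted p = 0.0113). Rps20, of the small subunit (chromosome 4, 3831334 to 3835665), was at 30.05, 44.3 and 36.4 at day 2 and at 70.4, 61.1, 175, 158 and 178 at day 7, with libraries 3 to 5 again above libraries 1 and 2, and rose by 1.80 ± 0.31 (adjusted p = 0.0113). Rpl14 rose by 1.12 ± 0.22 (adjusted p = 0.0178). Rplp1, of the ribosomal stalk, was called too and rose by 1.39 ± 0.29 (adjusted p = 0.0272).

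The low group for these genes was day 2. In control libraries Rpl8 ran from 593 to 758 normalized CPM, above all 3 day 2 libraries and between day 7 libraries 1 and 2 and libraries 3 to 5. Of the 77 genes, 42 (54.5%) were lower in every day 2 library than in every control library, against 6.01% of all genes. The median log2 difference from the day 2 mean was 0.63 to 0.84 in the 4 control libraries, 0.29 and 0.12 in day 7 libraries 1 and 2, and 1.04 to 1.07 in libraries 3 to 5. Without libraries 1 and 2, 28 of 77 (36.4%, against 1.54% of all genes) were called higher and the median was 1.07. Without libraries 3 to 5 the median was 0.16. Many ribosomal protein genes have near-identical processed pseudogenes, and how reads shared with them were counted can change their levels.

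Genes of ribosome biogenesis, which act in the nucleolus to make and assemble ribosomal RNA, had a higher estimate in 35 of 40 cases, with a median of 0.77. Of these, 3 (7.50%, against 0.357% of all genes) were called higher and 14 (35.0%, against 4.55%) were higher without overlap. Mybbp1a, a nucleolar regulator of ribosomal RNA synthesis (chromosome 11, 72441355 to 72451768), was at 68.7, 17.8 and 42.4 at day 2 and at 118, 152, 243, 187 and 233 at day 7. All day 7 libraries were above the highest day 2 library, and it rose by 2.12 ± 0.39 (adjusted p = 0.0158). Npm1, the abundant nucleolar chaperone, and Ddx21, an RNA helicase of the nucleolus, rose by 1.03 ± 0.22 and 1.20 ± 0.27 (adjusted p = 0.0308 and 0.0404). The list's median was 0.96 without libraries 1 and 2, where 7 were called higher (17.5%, against 1.54% of all genes), and 0.40 without libraries 3 to 5. Dhx37, an RNA helicase of small subunit assembly, was among the 10 called genes with the highest fold changes, at 10.7, 1.69 and 0.81 at day 2 and 28.2 to 67.3 at day 7, and rose by 3.26 ± 0.70 (adjusted p = 0.0315).

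**Figure D2:**
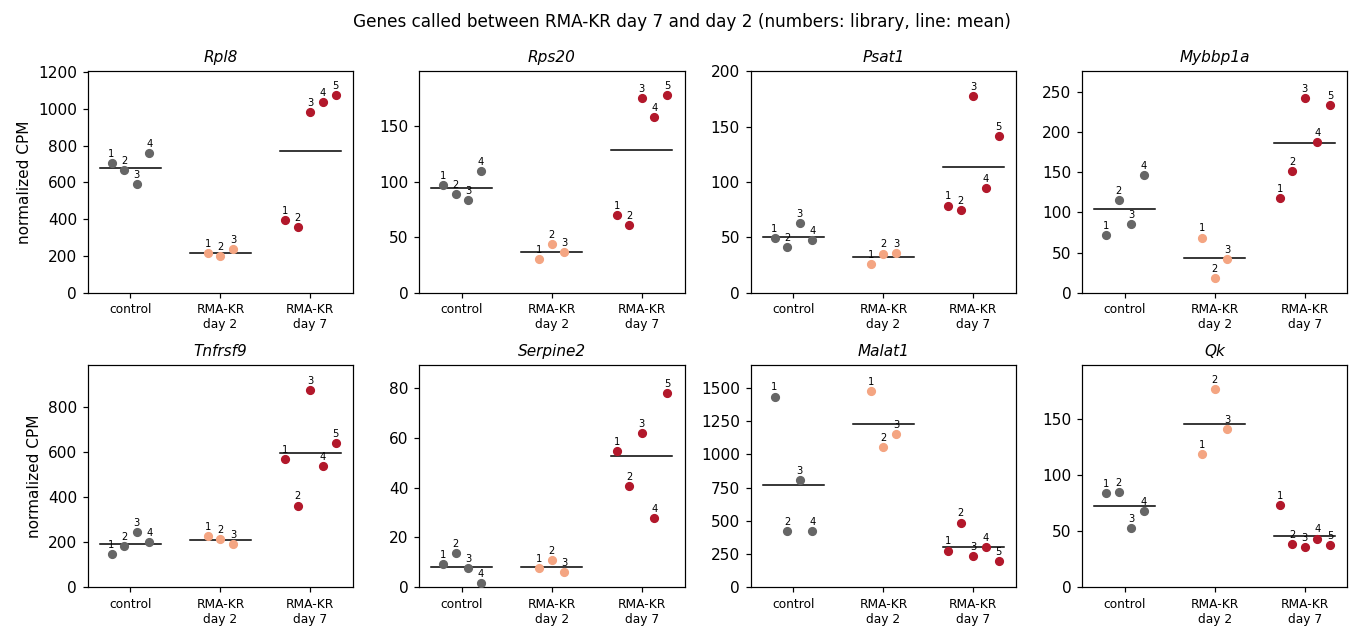
Normalized CPM of 8 called genes in control (n = 4), RMA-KR day 2 (n = 3) and RMA-KR day 7 (n = 5) libraries, with each point numbered by library and a line at the group mean. Rpl8 and Rps20 are lower at day 2 than in control libraries, while Tnfrsf9 and Serpine2 at day 2 lie within the control range and are higher in all 5 day 7 libraries.

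Hyou1 and Mlec, both of the endoplasmic reticulum, were among the 10 highest fold changes of called genes without overlap and with a mean of at least 5 normalized CPM. Hyou1, a chaperone, was at 18.7, 12.6 and 18.3 at day 2 and at 51.2, 24.7, 140, 142 and 91.5 at day 7, and rose by 2.44 ± 0.55 (adjusted p = 0.0382). Mlec, which binds glycans of newly made proteins there, was at 25.2, 26.3 and 58.7 and then at 85.2, 79.5, 275, 252 and 204, and rose by 2.28 ± 0.49 (adjusted p = 0.0309). Calr, encoding calreticulin, which helps to load MHC-I, was at 191, 144 and 126 and then at 293, 245, 616, 523 and 551 (chromosome 8, 84841850 to 84846934). In these 3 genes the day 7 libraries stayed above day 2, with libraries 1 and 2 the lowest. Calr rose by 1.54 ± 0.31 (adjusted p = 0.0198) and was the only call among 22 MHC-I and peptide loading genes (4.55%, against 0.357% of all genes), of which 20 had a higher estimate, with a median of 0.20. The 17 heat shock genes gave 0 calls, with a median of 0.37, and the lowest p were at Hspe1 (1.75 ± 0.45, adjusted p = 0.0700) and Hsp90ab1 (0.86 ± 0.24, adjusted p = 0.0917).

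Among metabolic genes, Psat1, an enzyme of serine synthesis and a target of the amino acid sensor ATF4 (chromosome 19, 15904678 to 15947337), was at 25.6, 35.5 and 36.2 at day 2 and at 78.8, 74.5, 178, 94.5 and 142 at day 7. No day 7 library was near the day 2 range, and no control library exceeded 63.1. Psat1 rose by 1.81 ± 0.31 (adjusted p = 0.0113), the only call among 30 genes of the ATF4 list (3.33%, against 0.357% of all genes), of which 22 had a higher estimate. Lap3, an aminopeptidase that frees amino acids, was at 8.16, 9.73 and 14.0 and then at 24.3, 60.8, 108, 47.9 and 71.5, and rose by 2.55 ± 0.44 (adjusted p = 0.0113). Glycolysis and pentose phosphate genes had a higher estimate in 24 of 29 cases, with a median of 0.61, 11 (37.9%, against 8.07% of all genes) higher at an unadjusted p under 0.05 and 0 called. Pgls and Gapdh had the lowest p (0.75 ± 0.19 and 1.44 ± 0.37, adjusted p = 0.0694 and 0.0700), and Gapdh also has many pseudogenes. Of 75 oxidative phosphorylation subunits, 61 had a higher estimate, but the median was 0.17 and 0 were called. Atp5b, of the ATP synthase, was higher by 0.76 ± 0.15 (adjusted p = 0.0178), a change under 2-fold, and Atp5d by 0.62 ± 0.18 (adjusted p = 0.100). Cholesterol and fatty acid synthesis genes had a median of 0.19 and 0 calls in 31. Abcg1, a sterol exporter, and Stard4, a sterol carrier, had estimates of -0.81 ± 0.25 and -1.09 ± 0.36 (adjusted p = 0.137 and 0.164).

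DNA replication and S phase genes had a higher estimate in 46 of 52 cases, with a median of 0.83 and 18 (34.6%, against 8.07% of all genes) higher at an unadjusted p under 0.05, but 0 were called. Mcm2, of the helicase that opens replication origins, was at 153, 83.9 and 63.2 at day 2 and at 149, 243, 660, 313 and 434 at day 7. Library 1 lay within the day 2 range, and the estimate was 1.84 ± 0.46 (adjusted p = 0.0595). Mcm5 was at 97.5, 147 and 115 and then at 181, 161, 649, 371 and 637, with an estimate of 1.74 ± 0.46 (adjusted p = 0.0790). Without libraries 1 and 2, 8 of 52 were called higher, against 1.54% of all genes, and the median was 1.11, and without libraries 3 to 5 it was 0.13. G2 and mitosis genes did not share this pattern, with a higher estimate in 28 of 66, a median of -0.11 and 0 called. Mki67, the gene of the proliferation marker Ki67, was at 34.3, 52.8 and 88.0 at day 2 and at 22.8, 65.2, 77.3, 14.8 and 22.4 at day 7, so that libraries 2 and 3 lay within the day 2 range and the other 3 below it. The lowest p in the list were at Anln, of the cleavage furrow (-3.59 ± 0.94, adjusted p = 0.0767), and Ncaph, of condensin (2.496 ± 0.69, adjusted p = 0.0898), which had opposite signs. Histone genes had a median of 0.17 and 0 calls in 31, with Hist1h1d and Hist1h1e at 1.40 ± 0.48 and 0.74 ± 0.31 (adjusted p = 0.187 and 0.287).

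**Figure D3:**
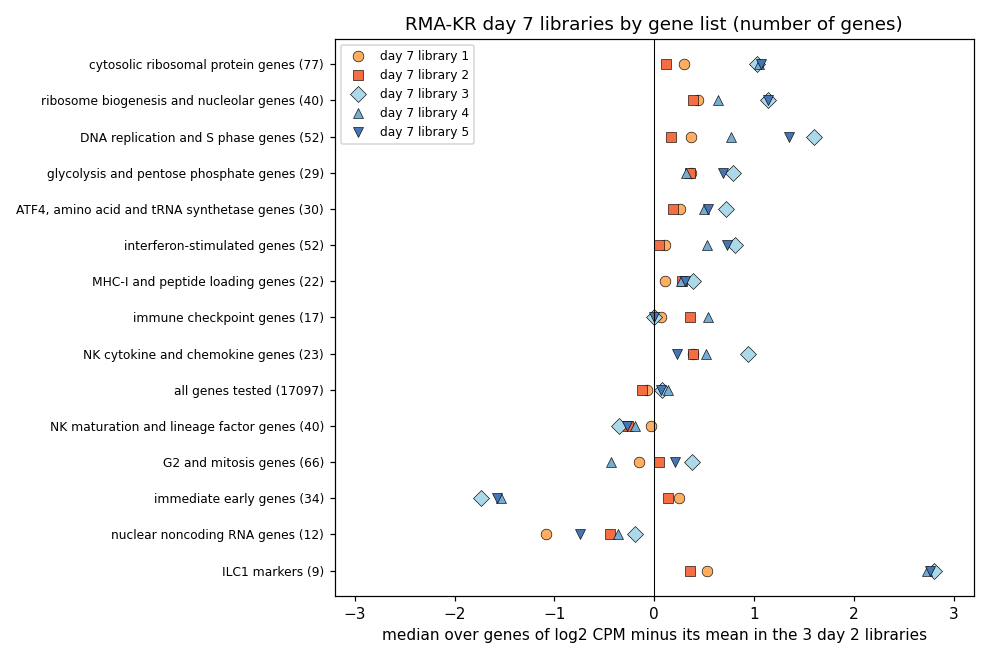
For each gene list, the median over its genes of log2 CPM (prior count 2) minus the mean of the 3 RMA-KR day 2 libraries, with 1 point for each of the 5 RMA-KR day 7 libraries. Libraries 3 to 5 lie at 1.04 to 1.07 for ribosomal protein genes, at -1.74 to -1.53 for immediate early genes and at 2.74 to 2.81 for ILC1 markers, while libraries 1 and 2 lie between 0.12 and 0.53 for these 3 lists.

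Immediate early genes differed widely between the day 7 libraries themselves. Fos (chromosome 12, 85473890 to 85477273), whose upstream sequence is given above, was at 1910, 1068 and 1575 normalized CPM at day 2 and at 975, 986, 88.3, 67.3 and 75.8 at day 7. Libraries 1 and 2 lay just below the day 2 range, and libraries 3 to 5 were lower by more than an order of magnitude. With all libraries the estimate for Fos was -1.79 ± 0.72 (adjusted p = 0.270). Jun was at 1045, 667 and 701 and then at 926, 1042, 91.2, 155 and 101 (-0.80 ± 0.62, adjusted p = 0.615), and Junb at 2597, 1786 and 1987 and then at 3421, 3020, 499, 530 and 495 (-0.41 ± 0.53, adjusted p = 0.807). Both had libraries 1 and 2 within or above the day 2 range and libraries 3 to 5 far below it. Dusp1, a phosphatase that ends MAP kinase signals, was at 1947, 1647 and 1846 and then at 1508, 1602, 144, 156 and 130 (-1.36 ± 0.65, adjusted p = 0.358). Nr4a1, an orphan nuclear receptor that follows antigen receptor signals, was at 449, 375 and 340 and then at 890, 822, 107, 100.1 and 129, above day 2 in 2 libraries and below it in 3 (0.08 ± 0.64, adjusted p = 0.982). Cd69, an early activation marker, was at 387, 289 and 336 and then at 380, 359, 103, 90.8 and 120.1 (-0.68 ± 0.48, adjusted p = 0.566), with libraries 1 and 2 inside the day 2 range. Egr1 was at 26.0 to 48.3 at day 2 and 19.8 to 38.5 at day 7 (-0.33 ± 0.36, adjusted p = 0.761), without such a gap.

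Of 34 immediate early genes tested, 0 were called with all libraries, 8 (23.5%, against 5.77% of all genes) were lower and 2 higher at an unadjusted p under 0.05, 6 (17.6%, against 4.27%) were lower without overlap, and the median was -0.51, with Fosl2 (-1.01 ± 0.27) and Fosb (-1.80 ± 0.59) at the lowest p (adjusted p = 0.0803 and 0.159). The split between libraries 1 and 2 and libraries 3 to 5 was itself known from Fos and Jun. The values with either set left out therefore describe the split and are no separate test of these genes. Without libraries 1 and 2 the median was -1.62, and 14 of 34 met the thresholds for lower (41.2%, where all genes gave 1.09%). The log2 estimates of Fos, Jun, Junb and Dusp1 were then -4.30, -2.80, -2.06 and -3.66. Without libraries 3 to 5 the median was 0.16 and Fos was at -0.65. The same low level occurred in 1 library without tumor, as Fos was at 1650, 947, 924 and 83.9 in control libraries 1 to 4. Control library 4 also had 27820 detected genes, the highest number of the series. The part that handling of the libraries had in these levels was not tested.

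**Figure D4:**
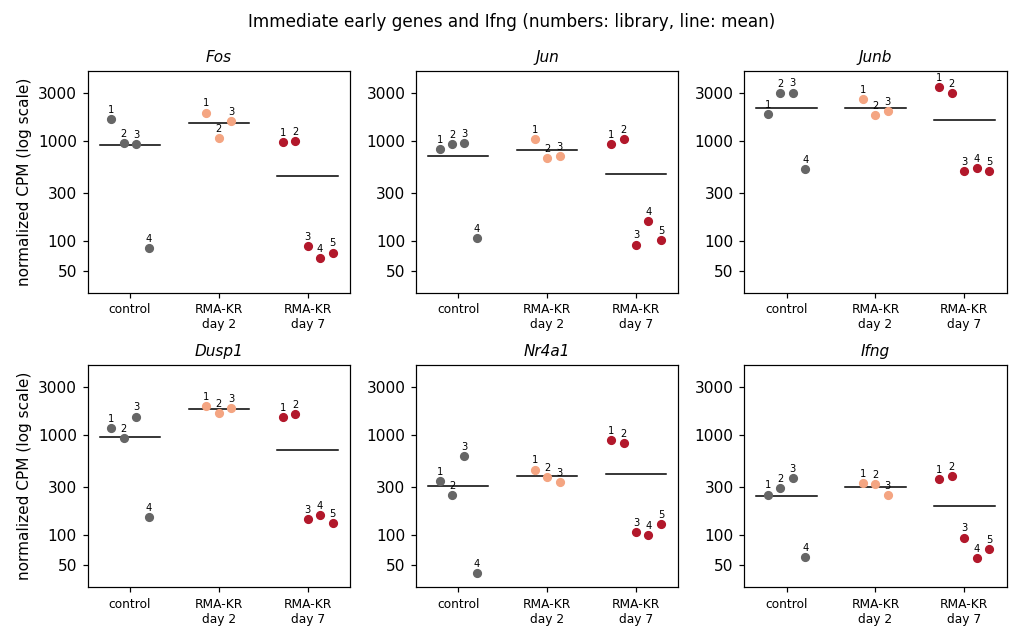
Normalized CPM on a log axis of 5 immediate early genes and Ifng in control, RMA-KR day 2 and RMA-KR day 7 libraries, with points numbered by library and a line at the group mean. Day 7 libraries 3, 4 and 5 and control library 4 lie apart below the other libraries in all 6 genes.

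Activation receptors and effector genes moved less evenly. Tnfrsf9, encoding the costimulatory receptor 4-1BB (chromosome 4, 150914562 to 150946102), was at 226, 212 and 192 at day 2 and at 568, 361, 875, 536 and 637 at day 7, and at 146 to 242 in controls. All 5 day 7 libraries exceeded all day 2 and control libraries, and Tnfrsf9 rose by 1.503 ± 0.31 (adjusted p = 0.0270). It was the only call among 17 checkpoint genes (5.88%, against 0.357% of all genes; median 0.28, or 0.21 with genes at 0 in every day 2 library set to the floor of 3 counts) and among 26 IL-2 and IL-15 response genes (3.85%, median 0.14). Serpine2, a serine protease inhibitor, was at 7.70, 10.8 and 5.96 and then at 54.6, 40.5, 62.1, 27.6 and 77.9 (chromosome 1, 79794197 to 79861180). It rose by 2.69 ± 0.50 (adjusted p = 0.0158), without overlap with day 2 or with the controls, at 1.70 to 13.6. Serpina3g, an inhibitor of cathepsins in lymphocytes, was at 415, 342 and 278 and then at 574, 519, 966, 861 and 1103, and rose by 1.22 ± 0.26 (adjusted p = 0.0322). Il12rb1, a subunit of the IL-12 and IL-23 receptors, was at 29.6, 37.1 and 45.8 and then at 48.0, 98.3, 73.2, 145 and 126, and rose by 1.39 ± 0.32 (adjusted p = 0.0454), as the only call in 23 IL-12 and IL-18 response genes (4.35%, against 0.357% of all genes), whose median was -0.18.

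Among 23 genes of granzymes, perforin, degranulation and some serpins, 3 (13.0%, against 0.357% of all genes) were called higher and the median was -0.07. They were Serpine2, Unc13d, which primes lytic granules for fusion (1.13 ± 0.26, adjusted p = 0.0404), and Gzmc. Members of the list were chosen with earlier results of these data known, so this share is no separate test. Gzmc, a granzyme of activated killer cells, had 1 count over the 3 day 2 libraries and 233 over the 5 day 7 libraries, a ratio of 159 at equal depth with an exact 95% counting interval of 28.2 to 6300, and reached at most 7.91 normalized CPM. Its neighbours in the granzyme locus are similar in sequence. Prf1, encoding perforin, was at 4333, 3719 and 3844 and then at 4639, 5271, 2933, 2811 and 2514 (-0.13 ± 0.22, adjusted p = 0.866). Gzmb was at 1734, 1231 and 1321 and then at 1922, 1832, 1563, 969 and 1136 (0.06 ± 0.29, adjusted p = 0.968). Ifng was at 327, 320 and 251 and then at 360, 390, 93.9, 58.0 and 72.2 (-0.62 ± 0.49, adjusted p = 0.629). In Prf1 and Ifng, libraries 1 and 2 were at or above every day 2 library and libraries 3 to 5 below every one. Without libraries 1 and 2, the estimate for Ifng was -2.00 (adjusted p = 0.00438). The split was known from Fos and Jun, and Ifng was split alike, so this value describes the split and is no separate test.

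Checkpoint genes of the exhausted state were mostly at low levels. Lag3 was at 7.79, 0.61 and 8.37 at day 2 and at 11.7, 8.10, 44.2, 41.2 and 80.4 at day 7 (2.73 ± 0.92, adjusted p = 0.176), with library 2 inside the day 2 range. Havcr2, encoding Tim-3, had no count at day 2 or in day 7 libraries 1 and 2 and was at 10.2, 1.36 and 18.6 in libraries 3 to 5 (adjusted p = 0.138). Nt5e, encoding CD73, was at 1.95, 2.07 and 9.26 and then at 32.3, 16.6, 12.4, 49.4 and 3.24 (2.36 ± 0.82, adjusted p = 0.196). Tigit was at 69.5 to 122 and then 103 to 155 (0.28 ± 0.35, adjusted p = 0.801), and Tox at 84.8 to 138 and then 79.8 to 104 (-0.28 ± 0.20, adjusted p = 0.582). Pdcd1 had too few counts to test. Without day 7 libraries 1 and 2, 3 of 16 checkpoint genes were called higher (18.8%, against 1.54% of all genes). Tnfrsf9, Lag3 (3.31, adjusted p = 0.0484) and Havcr2 (adjusted p = 0.0274) were among them. Lag3 and Havcr2 were lowest at day 7 in the libraries left out, so their calls describe the split and are no separate test. Without libraries 3 to 5 Lag3 was at 0.81 (adjusted p = 0.793). Of 34 exhaustion genes, Tnfrsf9 and Serpina3g were called higher (5.88%, against 0.357% of all genes) and the median was 0.24, or 0.19 with genes at 0 at day 2 set to the floor.

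Of 52 interferon-stimulated genes, 1 was called higher (1.92%, against 0.357% of all genes). Ly6e, an interferon-inducible surface protein that restricts virus entry (chromosome 15, 74955051 to 74959905), was at 93.0, 135 and 146 at day 2 and at 499, 133, 924, 1151 and 1256 at day 7. It rose by 2.66 ± 0.50 (adjusted p = 0.0172), although library 2 lay within the day 2 range. In this list 39 had a higher estimate and the median was 0.42. It was 0.63 without libraries 1 and 2 and -0.01 without libraries 3 to 5. Isg15 was at 1.91 to 4.08 and then 1.35 to 12.3 (1.26 ± 0.69, adjusted p = 0.425), and Rsad2 at 0.19, 0.23 and 1.69 and then 3.33 to 12.5, without overlap (3.24 ± 1.15, adjusted p = 0.208). The 23 interferon gamma genes gave 0 calls (median 0.25). Socs1, a brake on cytokine signals, was higher in all 5 day 7 libraries (1.12 ± 0.34, adjusted p = 0.129), and Iigp1 had no count at day 2 and 0.09 to 9.10 at day 7 (adjusted p = 0.180).

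NK identity genes gave 0 calls, and 10 of 14 NK markers had a lower estimate, with a median of -0.24 (-0.51 without day 7 libraries 1 and 2, against 0.05 over all genes, and 0.05 without libraries 3 to 5). Gzma, the most abundant granzyme of resting NK cells and named after its values were seen, was at 8538, 9756 and 10128 at day 2 and at 11566, 12468, 5031, 4757 and 4445 at day 7 (-0.31 ± 0.28, adjusted p = 0.691). Its libraries 1 and 2 lay above the day 2 range and libraries 3 to 5 below it, and Klra8, Klrd1, Klre1 and Nkg7 were also lower in libraries 3 to 5 than in every day 2 library. Ncr1, encoding the sorting marker NKp46, was at 3066, 3285 and 3254 and then at 2930 to 4040 (0.12 ± 0.16, adjusted p = 0.821). Klrb1c, encoding the sorting marker NK1.1 and also named after its values were seen, was at 1782, 1759 and 1960 at day 2. At day 7 it was at 2394, 2544, 1643, 1578 and 1460, with libraries 3 to 5 below every day 2 library. Klrk1, encoding NKG2D, was at 2562 to 2902 and then at 1779 to 3044 (-0.29 ± 0.17, adjusted p = 0.449), and Eomes at 216 to 251 and then at 213 to 380 (0.26 ± 0.18, adjusted p = 0.565). Il2rb, the shared IL-2 and IL-15 receptor chain, was at 2070 to 2334 and then at 2474 to 3711, without overlap (0.53 ± 0.16, adjusted p = 0.129). Itga2, the integrin CD49b, was at 189 to 252 and then at 81.5 to 240 (-0.49 ± 0.23, adjusted p = 0.341). Of 40 maturation and lineage factors, 12 (30%) were lower at an unadjusted p under 0.05, against 5.77% of all genes, with a median of -0.11. Ets1, a transcription factor of NK development, was at 1635, 1895 and 2065 and then at 1420, 1395, 963, 929 and 891, lower by 0.74 ± 0.17 (adjusted p = 0.0382) and so under 2-fold, and Runx1 was at -0.87 ± 0.22 (adjusted p = 0.0694). Activating receptors had a median of 0.04 in 26 genes, with Crtam (1.65 ± 0.50) and Fcer1g (-0.51 ± 0.18) at the lowest p (adjusted p = 0.124 and 0.185). The 19 Ly49 and other inhibitory receptor genes, many of them near-identical copies, had a median of -0.24, with Klra10 (-1.72 ± 0.46) and Klra9 (-0.60 ± 0.32) at the lowest p (adjusted p = 0.0843 and 0.411).

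The remaining lists had 0 calls each. The 29 receptor signaling genes had a median of -0.15, with Nfatc3 at -0.99 ± 0.25 and Akt2 at 0.53 ± 0.18 (adjusted p = 0.0629 and 0.189). The 33 negative regulators also had a median of -0.15, and Ptprc, encoding CD45, was at -0.53 ± 0.14 (adjusted p = 0.0700). The 29 trafficking genes had a median of 0.05, with the integrin Itgam at -1.09 ± 0.33 (adjusted p = 0.117). In 23 NK cytokine genes the median was 0.44, and Xcl1, a chemokine that attracts dendritic cells, was at 70.8 to 80.5 and then at 127 to 177 (1.06 ± 0.29, adjusted p = 0.0872), while Tnfsf14 was at 1.32 ± 0.38 (adjusted p = 0.103). The 24 NF-kappa B genes had a median of 0.17, with Nfkb2 and Relb at 1.24 ± 0.32 and 1.54 ± 0.43 (adjusted p = 0.0659 and 0.0882). The 25 TGF-beta pathway genes had a median of -0.25, with the receptor Tgfbr2 at 0.55 ± 0.19 and Skil at -0.72 ± 0.30 (adjusted p = 0.185 and 0.287). The 37 proteasome subunits had a median of 0.19, with Psme1 and Psmb5 at 0.61 ± 0.15 and 0.81 ± 0.26 (adjusted p = 0.0595 and 0.138). The 28 apoptosis genes had a median of -0.18, with Mdm2 and Casp8 at -0.52 ± 0.20 and -0.38 ± 0.15 (adjusted p = 0.258 and 0.269). The 10 mitochondrially encoded genes had a median of 0.34, with the ribosomal RNAs mt-Rnr1 and mt-Rnr2 at 1.08 ± 0.50 and 0.44 ± 0.21 (adjusted p = 0.337 and 0.351).

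Among the called genes that were lower at day 7 was Malat1. Malat1, a nuclear noncoding RNA of splicing speckles (chromosome 19, 5795690 to 5802672), was at 1482, 1055 and 1152 at day 2 and at 275, 486, 236, 301 and 193 at day 7. All 5 day 7 libraries, the highest being library 2, were well below the lowest day 2 library, and Malat1 fell by 2.04 on the log2 scale (SE 0.41, adjusted p = 0.0212), the only call in 12 nuclear noncoding RNA genes (8.33%, against 0.105% of all genes called lower) with a median of -0.81. In controls it spread from 419 to 1437, over the gap between the 2 groups. Qk, an RNA-binding protein of splicing (chromosome 17, 10202601 to 10319854), was at 119, 177 and 141 and then at 73.1, 38.5, 35.6, 43.4 and 37.2, and fell by 1.68 (SE 0.31, adjusted p = 0.0158). Rbm4b, another splicing factor with a near copy in Rbm4, and Arglu1, a coregulator of splicing, fell by 1.67 and 1.25 (SE 0.32 and 0.29, adjusted p = 0.0172 and 0.0404). Nf1, which restrains Ras, was at 17.9, 26.2 and 17.1 and then at 0.56, 1.35, 2.06, 2.96 and 4.91, and fell by 3.11 (SE 0.60, adjusted p = 0.0178). Mfhas1 was at 49.1, 49.9 and 47.5 and then at 6.08 to 14.2, and fell by 2.28 (SE 0.42, adjusted p = 0.0158). The predicted gene Gm42715, Fbrsl1, Plgrkt, a plasminogen receptor, and Znrf3, a ubiquitin ligase of Wnt receptors, fell by 2.89, 2.15, 1.24 and 1.23 (SE 0.50, 0.48, 0.23 and 0.28, adjusted p = 0.0113, 0.0382, 0.0158 and 0.0404). Among the 18 genes called lower, 15 were higher in every day 2 library than in every control library, against 4.50% of all genes tested. They were called on the same day 2 values, which favoured this count, so it is no separate test.

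The highest fold changes of all were set by genes nearly or fully undetected at day 2. Stk35, a serine/threonine kinase, had 1 count at day 2 and 573 at day 7, a ratio of 391 with an exact 95% counting interval of 69.8 to 15500, and was at 4.86, 1.44, 13.2, 26.0 and 14.0 normalized CPM in day 7 libraries 1 to 5 and at 8.49 to 13.7 in controls. Twsg1, a binder of bone morphogenetic proteins, and Miga2, of mitochondrial fusion, were at 0 to 0.72 and 0.08 to 1.85 at day 2 and at 2.16 to 37.4 and 13.3 to 30.6 at day 7, and rose by 5.57 ± 1.16 and 4.47 ± 0.78 (adjusted p = 0.0270 and 0.0113). Tspan31, Clic3 and Prr11, chosen here after their values were seen, had 0 counts in every day 2 library and were at least 23.8-fold, 14.0-fold and 9.94-fold higher at day 7 than a floor of 3 counts per library. Llgl1, a polarity protein, and Nudcd1 rose by 2.43 ± 0.54 and 2.28 ± 0.42 (adjusted p = 0.0379 and 0.0158). Of the 61 genes called higher, 46 were lower in every day 2 library than in every control library, against 6.01% of all genes tested. Of the same 61, 6 were higher in every day 7 library than in every control library, as were 228 of the 17097 genes tested. These genes were called on the same day 2 and day 7 values, which favoured both counts, so neither is a separate test. In 29 of the 61 (47.5%), day 7 libraries 1 and 2 were both below libraries 3 to 5, against 21.2% of all genes tested.

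Markers of other cells gave 0 calls in any list. The 14 NK markers summed to 31600 to 34900 normalized CPM at day 2 and 24000 to 40100 at day 7, with 0 of 14 at zero. T cell and T lymphoma markers (17) summed to 615 to 864 and 571 to 691, B cell markers (13) to 303 to 472 and 296 to 529, and macrophage, monocyte and dendritic cell markers (24) to 876 to 1070 and 1000 to 1560. Itgax and Ly6c2 made up most of the last sum, and genes of MHC-II presentation within it differed between the day 7 libraries. Cd74, the MHC-II invariant chain, was at 9.18, 0.15 and 1.45 at day 2 and at 4.09, 2.16, 48.5, 78.7 and 66.6 at day 7, with a control maximum of 19.6. H2-Aa was at 0 to 3.99, and then at 0 to 1.53 in libraries 1 and 2 and 14.1 to 40.4 in libraries 3 to 5, and H2-Ab1 at 0 to 4.27, 2.16 to 4.51 and 12.7 to 31.3. Cd22, a B cell lectin, was at 0 to 11.7, at 0 and 13.8, and at 33.7 to 46.6. These 4 genes, named after their values were seen, had higher levels in libraries 3 to 5 than in every other day 2 and day 7 library, and their estimates over all libraries were not called (adjusted p = 0.332, 0.467, 0.374 and 0.603). The rest of their lists were mixed. In the same order, Itgax was at 456 to 601, at 596 and 519, and at 703 to 1075. Ctss, also named after its values were seen, was at 66.0 to 93.7, at 76.8 and 60.5, and at 99.8 to 146. Of 16 macrophage, monocyte and dendritic cell markers tested, 8 had a higher and 8 a lower estimate. Their median was 0.06, and -0.45 without libraries 1 and 2. Ly6c2, also named after its values were seen, was at 273 to 335 at day 2 and 224 to 259 in libraries 3 to 5. Of 12 B cell markers tested, 7 had a higher and 5 a lower estimate, with a median of 0.21 (0.62 without libraries 1 and 2). Granulocyte markers (15) summed to at most 18, with S100a9, Elane and Camp at 0 counts in all 8 libraries, and plasma cell markers (12) to 411 to 478 and 252 to 476, with Mzb1 at 0. Red blood cell and megakaryocyte markers (14) summed to 376 to 609 and 425 to 524, with Gata1 at 0. Cd3e was at no more than 2.52 in the 8 libraries, whereas Cd3d was at 0.97 to 7.20 at day 2, at 4.44 and 2.97 in day 7 libraries 1 and 2, and at 21.0, 30.6 and 29.6 in libraries 3 to 5 (adjusted p = 0.232). Of 14 T cell and T lymphoma markers tested, 7 had a higher and 7 a lower estimate, with a median of 0.23 (0.86 without libraries 1 and 2). Cd28, also named after its values were seen, was at 115 to 166 at day 2 and 85.5 to 100 in libraries 3 to 5. Thy1, named likewise, was at 9.74 to 35.15 at day 2. It was at 31.4 and 23.7 in day 7 libraries 1 and 2 and at 35.6 to 53.7 in libraries 3 to 5. Lef1 was at -0.77 ± 0.27 (adjusted p = 0.205), and the other marker genes with the lowest p in their lists had adjusted p from 0.101 to 0.692.

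ILC1 markers, of innate lymphoid cells that share NK1.1 and NKp46 with NK cells and so pass the sort, had a higher estimate in all 9 genes tested, with a median of 1.75 and 0 called. Their sum over these 9 genes was 101 to 143 at day 2, 117 and 132 in day 7 libraries 1 and 2, and 373 to 539 in libraries 3 to 5, against 120 to 264 in controls, where control library 4 was the highest. Of 2 genes chosen after their values were seen, Il7r, the IL-7 receptor, was at 10.8, 24.3 and 2.98 and then at 13.5, 8.37, 66.8, 133 and 80.6, and Cxcr6, a chemokine receptor, at 0, 9.42 and 6.12 and then at 4.37, 0.18, 32.0, 38.8 and 30.8. Tmem176b was at 2.98 ± 1.29 and Il21r at 0.84 ± 0.35 (adjusted p = 0.308 and 0.292), while Itga1, encoding CD49a, was at 3.94 to 13.8 and 0.09 to 19.3 (adjusted p = 0.963). The median was 2.03 without libraries 1 and 2 and -0.07 without libraries 3 to 5. The same libraries thus had low immediate early genes, high ribosomal protein genes, high ILC1 markers, several lower NK markers such as Gzma, and more detected genes. They also had high Cd74, H2-Aa, H2-Ab1, Cd22, Cd3d, Itgax, Ctss and Thy1. Other members of these marker lists, such as Ly6c2 and Cd28, were below day 2. The part of each in the others was not tested.

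The change from the early to the intermediate stage was then compared between tumors, as (RMA-KR day 7 minus day 2) minus (RMA day 4 minus day 2). The intermediate day differs between the tumors, so tumor and day cannot be told apart. In this interaction, 4 genes (0.0234%) were called with a positive value, with a positive estimate in RMA-KR and a negative one in RMA, and 18 (0.105%) with a negative one, and 7 of the 18 belonged to the 66 G2 and mitosis genes. Kif22, a kinesin of chromosome movement, was at 39.5 ± 20 and 20.3 ± 4.84 (SD) normalized CPM in RMA-KR at day 2 and day 7, and at 16.9 ± 4.13 and 182 ± 25.5 in RMA at day 2 and day 4, an interaction of -4.39 ± 0.57 (adjusted p = 0.00121). Kif11, the motor that separates spindle poles, was at 46.4 ± 7.09 and 19.8 ± 10.2 in RMA-KR and at 26.0 ± 14.6 and 261 ± 45.8 in RMA (-4.55 ± 0.71, adjusted p = 0.0117). In both genes every RMA day 4 library was above every RMA-KR day 2 and day 7 library. Plk1 (-4.01 ± 0.81), Birc5 (-4.25 ± 0.86), Anln (-7.37 ± 1.48), Racgap1 (-2.29 ± 0.45) and Kif20a (-4.69 ± 0.92), all of mitosis and cell division, were called too (adjusted p = 0.0439, 0.0439, 0.0409, 0.0409 and 0.0409).

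Over the 66 genes of this list the median log2 change was -0.11 in RMA-KR and 2.53 in RMA. Outside it, Zwilch, of the kinetochore, was at 4.71 ± 2.77 and 7.39 ± 4.04 in RMA-KR and at 0.18 ± 0.31 and 29.6 ± 11.6 in RMA (-6.71 ± 1.19, adjusted p = 0.0308), and Cdkn3, a phosphatase of cyclin-dependent kinases, was at 4.37 ± 2.82 and 2.93 ± 1.44 and at 0.18 ± 0.31 and 13.5 ± 2.57 (-6.80 ± 1.34, adjusted p = 0.0409). Cnot9, of the mRNA deadenylation complex, and Rnh1, the ribonuclease inhibitor, had interactions of -2.66 ± 0.42 and -1.07 ± 0.19 (adjusted p = 0.0117 and 0.0308), and Stard4 had -3.11 ± 0.56 (adjusted p = 0.0308). Cnot9 was at 143 ± 8.93 and 102 ± 28.0 in RMA-KR and at 37.8 ± 13.9 and 170 ± 46.7 in RMA. Ribosomal protein genes gave 0 calls in the interaction, with medians of 0.73 in RMA-KR and 0.08 in RMA. Without day 7 libraries 1 and 2, 86 genes were called in the interaction, the 22 among them, and without libraries 3 to 5, 8, of which 4 were shared. Leaving out 1 library at a time gave 1 call (without RMA day 2 library 1) to 170 (without RMA day 2 library 3).

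**Figure D5:**
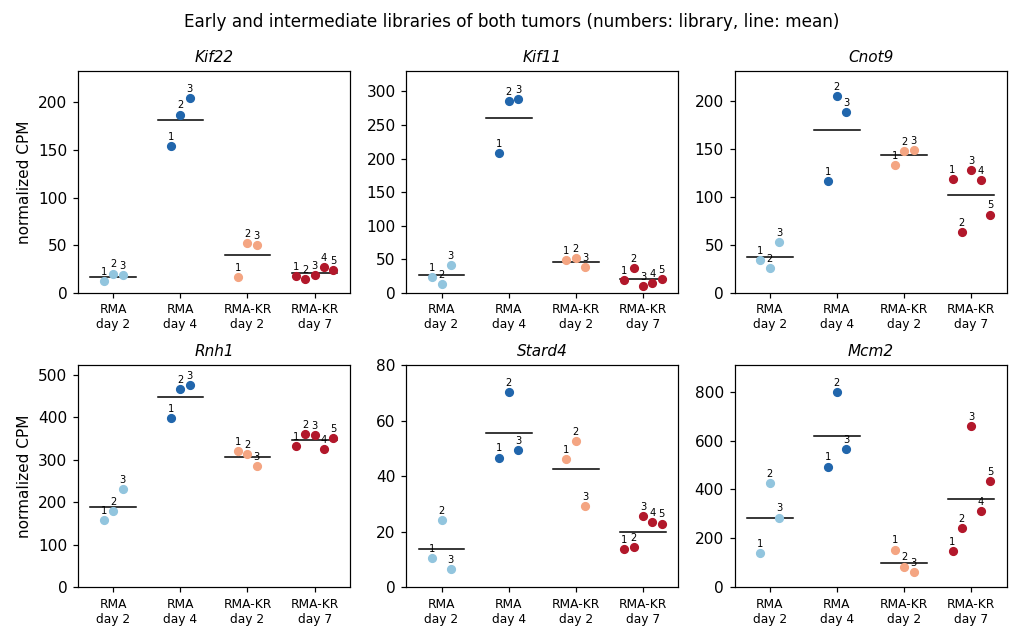
Normalized CPM of 6 genes in RMA day 2 and day 4 libraries (n = 3 each) and RMA-KR day 2 (n = 3) and day 7 (n = 5) libraries, with points numbered by library and a line at the group mean. Kif22 and Kif11 are at 154 to 204 and 208 to 289 in the RMA day 4 libraries and at 14.5 to 26.6 and 9.64 to 36.4 in the RMA-KR day 7 libraries.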

How the data were processed

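The table deposited by the authors gives raw read counts for 45237 genes. By the study's methods and the submitters' processing notes, reads were trimmed with cutadapt 1.10, cleared of ribosomal RNA with Bowtie2 2.2.8, aligned to mm10 with STAR 2.5.3a and counted with HTSeq 0.6.1p1 in union mode. Of 112 columns the 24 of counts were used. Another 48 columns of values per library and the authors' comparison columns (log2 fold changes, p-values, adjusted p-values) were not used.

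Groups came from the labels. In R 4.3.3, edgeR 4.0.16 kept 17097 genes by filterByExpr on the 7 groups, scaled counts by TMM and fitted 1 mean per group to all 24 libraries (robust quasi-likelihood, Benjamini-Hochberg adjustment over all genes). Normalized CPM use these scaled totals. SE come from the fold change and F statistic. Totals per library ran from 5138651 to 14863500 counts, and 3 counts equal 0.208 to 0.554 CPM. Intervals and floors cover counting error only. List medians per library use log2 CPM with a prior count of 2. No 2 libraries within RMA-KR day 2 or within day 7 agreed within sampling noise (chi-square per degree of freedom at least 27.6).

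The 32 gene lists and 8 marker lists and the members were chosen with earlier results of these data known. Symbols were matched through RefSeq synonyms (GRCm38.p6). Genes named are the 10 highest and 10 lowest fold changes among called genes without overlap and a mean of at least 5 CPM, up to 4 called members per list (or the 2 of lowest p), a list of NK and immediate early genes, and the first 5 calls of the interaction, with others marked or given for a group. Promoter sequences are from RefSeq. Some genes that meet this rule are not reported here.

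The comparison was repeated with DESeq2 1.42.0 (its defaults, and betaPrior), with edgeR using the size factors of DESeq2, without filtering or keeping genes with 10 or more counts throughout, with a replicate block, on the compared groups alone, with single libraries omitted, and with day 7 libraries 1 and 2 or 3 to 5 left out (for the interaction, these last were chosen after seeing the data). The fit was tested on simulated data, where 121 of 200 genes changed 4-fold in RMA-KR day 7 (60.5%) and 3 of 15326 others were called. The changed genes had a mean above 5 CPM, and the simulated day 7 libraries held no split between libraries 1 and 2 and libraries 3 to 5. These rates therefore need not hold for the real libraries.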

Additional observations from a re-analysis of the deposited data

Results flagged for a closer look

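In groups of 4 to 10 libraries, a highest or lowest value far from the others was looked for among the genes named. Chance gives such a value in about 1 in 20 groups. Every named gene was searched, so several are expected by chance. Of the RMA-KR day 7 libraries, library 1 was high for Gm42715 at 9.44 normalized CPM, against 2.70 to 4.47 in the other 4, and for Qk at 73.1, against 35.6 to 43.4. Library 3 was high for Xcr1, a dendritic cell marker, at 0.688 against at most 0.114, and was the only one of the 5 with counts of Ppbp (0.574) and Gp9 (0.344), both of platelets. Library 4 alone had counts of Ngp, a neutrophil granule gene, at 1.14.

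The change from the early to the intermediate stage differed between RMA-KR and RMA in 22 genes by edgeR's interaction test. On the log2 scale the interaction was -7.37 for Anln, -3.11 for Stard4, -4.39 for Kif22, -4.55 for Kif11, -2.66 for Cnot9, -1.07 for Rnh1 and -6.71 for Zwilch. Tumor and day cannot be told apart in it.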

How the results depend on the processing

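Against 79 genes called between day 7 and day 2 (61 higher, 18 lower), DESeq2 with its defaults called 458 (337 and 121), DESeq2 with betaPrior 308 (223 and 85), edgeR without a filter on low counts 369 (241 and 128), and edgeR on genes with 10 or more counts throughout 259 (181 and 78). Only the libraries of the groups compared gave 0 (0 and 0), and leaving out 1 library at a time gave 8 to 221 (6 to 150 higher and 2 to 71 lower). Leaving out day 7 libraries 1 and 2 gave 441 (258 and 183), and leaving out libraries 3, 4 and 5 gave 0 (0 and 0). With a replicate block 2 were called (2 and 0). Correlations of same-numbered libraries ran from -0.0713 to 0.00703, so the libraries share a number only. In every alternative, each of the 79 genes that could be tested had the same direction. The 22 calls of the interaction became 291 (DESeq2), 161 (betaPrior), 301 (no filter), 41 (at least 10 counts), 1 (replicate block), 2 (only the groups compared), 1 to 170 (1 library left out), 86 and 8 (day 7 libraries 1 and 2, or 3 to 5, left out, chosen after seeing the data). The cause of these shifts was not tested.

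Named genes whose log2 estimate changed sign, none of them called in the fit with all libraries, did so mostly with day 7 libraries left out. Without libraries 3 to 5 the estimates were 0.15 for Klra9, 0.27 for Jun, 0.58 for Junb, 0.11 for Cd69, 0.31 for Ifng, -1.38 for Itga1, -0.0436 for Isg15, 0.30 for Prf1 and 0.0121 for Klrk1. Without libraries 1 and 2 they were -1.79 for Nr4a1, -0.22 for Gzmb and -0.0066 for Ncr1. DESeq2 with betaPrior gave -0.0072 for Nr4a1 and -0.004 for Gzmb, and the replicate block gave 0.13 for Junb, -0.65 for Itga1 and 0.0753 for Prf1. With 1 library left out at a time, estimates ran from -6.93 to 4.28 for Ngp, from -6.01 to 2.65 for Gp9, from -0.43 to 0.31 for Nr4a1, from -0.25 to 0.93 for Itga1 and from -0.0641 to 0.19 for Gzmb.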
